A study of Mus musculus with 4 samples.

Results

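The regions described here are stretches of the mouse genome in or near genes that gave a peak in both mTEChi libraries and in neither mTEClo library. Intervals of the 4 deposited peak lists were merged where they shared at least 1 bp. A merged region was kept when its midpoint lay inside a protein-coding gene or within 5 kb of one, on chromosomes 1 to 19. Of 148239 merged regions in or near genes, 3017 met this rule, which is 2.04%. They make up 1.17% of all 258125 merged regions. The reverse pattern, both mTEClo libraries and neither mTEChi library, was held by 4516 regions in or near genes (3.05%), and 4210 (2.84%) had a peak in all 4 libraries. The regions were chosen by the presence or absence of peaks in the 4 lists, so no test is given on these counts.

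The libraries came from the thymus of Trp53-WT mice 4 to 5 weeks old, with 2 libraries of mTEChi cells and 2 of mTEClo cells, and 500000 cells per condition. All cells came from thymi enriched for EpCAM+ cells and sorted. CUT&RUN was used, in which a nuclease fused to protein A releases DNA next to antibody-bound chromatin. The antibody is given as anti-P53 in the titles and as anti-BAF155 in the protocol, so the protein behind the peaks is uncertain. No control-antibody library was analysed here, it is not stated that the replicates were different animals, and peak lists hold no RNA, so the identity of the sorted cells could not be checked against marker expression.

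Medullary thymic epithelial cells display self-antigens to developing T cells. The mTEChi state carries abundant MHC class II and co-stimulatory molecules, includes the Aire-expressing cells, and matures under signals from RANK and CD40 through NF-kB; the mTEClo state is a mixture of precursors and other mature forms. p53 is a stress-activated transcription factor whose best known targets arrest the cell cycle or trigger cell death, and BAF155 is a core subunit of the BAF chromatin remodelling complex.

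Region sequences are shown where an mTEChi-only region covers the promoter window of a gene, taken as 250 bases before to 50 bases after a start in RefSeq (GRCm38.p6, mm10), because there the sequence under the peak can be read. Capitals mark matches, on either strand, to the 9 motifs described further on. The first 5 windows are those of the strongest such regions by rank, and the last 4 were chosen after their values were seen, as windows of p53 target, chromatin and epithelial genes. They lie at chr4:91376447-91376746 on the minus strand (Elavl2, a neuronal RNA-binding protein), chr11:96916465-96916764 on the minus strand (Cdk5rap3, a regulator of protein UFMylation), chr13:23562336-23562635 on the minus strand (H3c6, a histone H3 gene), chr1:120120937-120121236 on the plus strand (3110009E18Rik), chr5:134946885-134947184 on the minus strand (Cldn4, a tight junction claudin), chr14:31018888-31019187 on the plus strand (Pbrm1, a subunit of the PBAF remodelling complex), chr17:29090729-29091028 on the plus strand (Cdkn1a, the cell cycle inhibitor p21), chr10:117710709-117711008 on the minus strand (Mdm2, the ubiquitin ligase that degrades p53) and chr17:87635729-87636028 on the plus strand (Epcam, an epithelial adhesion molecule). The 3110009E18Rik region also overlapped the promoter window of Dbi, with its midpoint 4 bp before the Dbi start. The Pbrm1 region also overlapped that of Gnl3, with its midpoint 127 bp after the Gnl3 start.
Elavl2: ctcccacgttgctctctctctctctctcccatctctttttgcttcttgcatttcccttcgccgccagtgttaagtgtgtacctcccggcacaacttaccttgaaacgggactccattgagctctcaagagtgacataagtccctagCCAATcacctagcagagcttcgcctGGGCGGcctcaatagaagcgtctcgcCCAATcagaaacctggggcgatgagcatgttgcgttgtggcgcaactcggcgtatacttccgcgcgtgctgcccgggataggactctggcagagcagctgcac
Cdk5rap3: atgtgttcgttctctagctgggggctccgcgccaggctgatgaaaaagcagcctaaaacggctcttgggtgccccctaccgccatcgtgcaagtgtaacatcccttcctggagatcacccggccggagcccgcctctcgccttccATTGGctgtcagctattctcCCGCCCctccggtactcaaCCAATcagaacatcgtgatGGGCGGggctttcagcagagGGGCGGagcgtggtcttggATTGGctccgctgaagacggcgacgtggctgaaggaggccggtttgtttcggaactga
H3c6: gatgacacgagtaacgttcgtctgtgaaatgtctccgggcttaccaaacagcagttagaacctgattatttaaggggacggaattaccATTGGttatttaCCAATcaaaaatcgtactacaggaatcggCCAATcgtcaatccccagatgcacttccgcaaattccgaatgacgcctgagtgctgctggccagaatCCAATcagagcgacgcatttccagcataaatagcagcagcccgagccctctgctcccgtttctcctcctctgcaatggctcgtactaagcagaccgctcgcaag
3110009E18Rik: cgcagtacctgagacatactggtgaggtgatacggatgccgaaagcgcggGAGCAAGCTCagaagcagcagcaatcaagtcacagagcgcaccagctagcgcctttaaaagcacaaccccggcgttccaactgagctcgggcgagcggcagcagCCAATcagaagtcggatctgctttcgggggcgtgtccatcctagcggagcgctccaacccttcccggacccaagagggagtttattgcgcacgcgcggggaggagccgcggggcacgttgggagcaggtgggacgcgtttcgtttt
Cldn4: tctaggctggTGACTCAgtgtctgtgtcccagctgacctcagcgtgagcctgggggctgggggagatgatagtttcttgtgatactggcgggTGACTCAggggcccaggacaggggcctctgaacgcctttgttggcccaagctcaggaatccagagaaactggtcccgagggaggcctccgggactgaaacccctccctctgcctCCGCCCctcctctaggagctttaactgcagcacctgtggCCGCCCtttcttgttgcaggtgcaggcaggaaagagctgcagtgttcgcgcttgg
Pbrm1: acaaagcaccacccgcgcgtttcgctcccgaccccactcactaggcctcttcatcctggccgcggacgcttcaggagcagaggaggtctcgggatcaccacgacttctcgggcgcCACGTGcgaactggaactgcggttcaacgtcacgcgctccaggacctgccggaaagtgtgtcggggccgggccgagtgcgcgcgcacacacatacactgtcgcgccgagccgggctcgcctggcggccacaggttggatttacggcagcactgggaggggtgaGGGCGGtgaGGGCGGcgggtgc
Cdkn1a: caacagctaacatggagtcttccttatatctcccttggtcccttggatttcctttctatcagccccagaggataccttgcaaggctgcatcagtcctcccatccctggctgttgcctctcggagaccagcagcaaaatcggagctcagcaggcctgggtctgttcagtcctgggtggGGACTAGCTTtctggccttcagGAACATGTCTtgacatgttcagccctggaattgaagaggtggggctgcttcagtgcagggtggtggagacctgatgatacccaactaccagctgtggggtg
Mdm2: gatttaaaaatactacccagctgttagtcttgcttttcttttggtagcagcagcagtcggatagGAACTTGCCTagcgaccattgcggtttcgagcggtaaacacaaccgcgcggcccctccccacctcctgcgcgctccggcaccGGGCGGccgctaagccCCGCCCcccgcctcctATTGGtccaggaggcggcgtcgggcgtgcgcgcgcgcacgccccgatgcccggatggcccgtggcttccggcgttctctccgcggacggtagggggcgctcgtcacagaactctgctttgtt
Epcam: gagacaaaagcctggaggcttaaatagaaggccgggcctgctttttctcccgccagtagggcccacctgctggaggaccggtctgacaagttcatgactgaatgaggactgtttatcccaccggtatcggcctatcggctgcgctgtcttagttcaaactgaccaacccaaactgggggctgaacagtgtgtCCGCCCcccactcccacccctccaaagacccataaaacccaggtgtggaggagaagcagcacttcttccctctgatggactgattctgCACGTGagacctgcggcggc

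In these windows the p53 half-site, a decamer that p53 binds in pairs, matched at positions -73 and -51 of Cdkn1a, at -186 of Mdm2 and at -200 of 3110009E18Rik, which is on no p53 list used here, counted from the transcription start. The Cldn4 window held the AP-1 motif at -240 and -158. The H3c6 window held 4 CCAAT boxes, the first at -162. These are matches of letters in a window and not measured binding sites.

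Most mTEChi-only regions lay in gene bodies and away from starts. The midpoint was inside a gene for 82.5% of them (95% Wilson interval 81.1 to 83.8), against 84.1% of mTEClo-only regions, 58.1% of regions in all 4 libraries and 85.9% of all merged regions in or near genes. Within 1 kb of a gene end lay 480 mTEChi-only regions, or 15.9% (14.6 to 17.3), against 20.2% (19.1 to 21.4) of mTEClo-only regions, 61.7% of regions in all 4 libraries and 13.5% of all merged regions. On each of these measures the mTEChi-only percent was nearer to that of all merged regions than to that of regions in all 4 libraries, a description that carries no test.

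**Figure D1:**
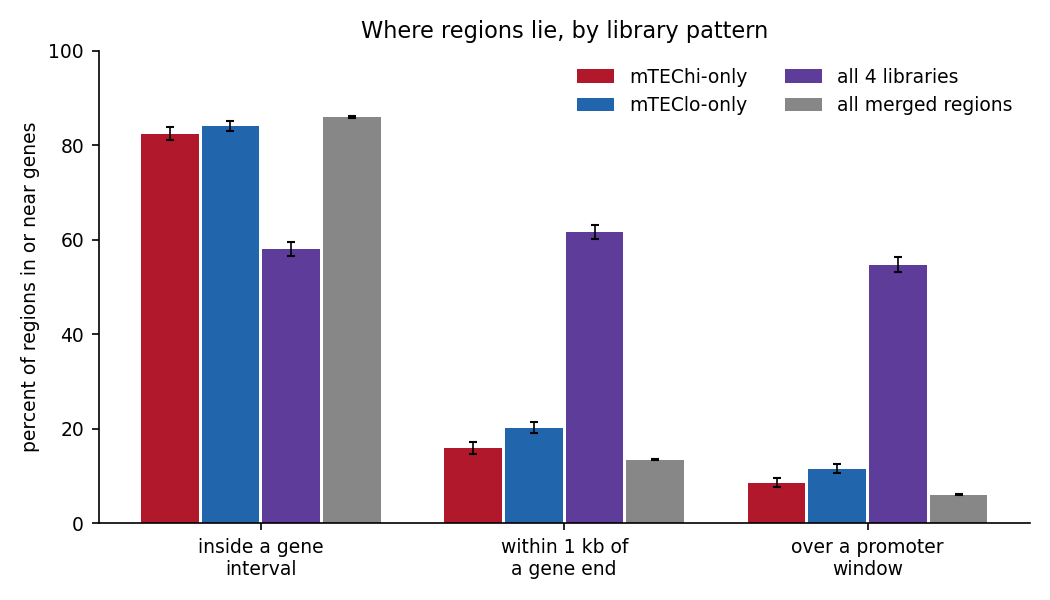
Percent of regions in or near genes (y axis) that lay inside a gene interval, within 1 kb of a gene end or over a promoter window, for mTEChi-only, mTEClo-only, all-4-library and all merged regions; error bars are 95% Wilson intervals and cover counting error only. At gene ends the mTEChi-only bar stands at 15.9% and the mTEClo-only bar at 20.2%, while the bar of regions in all 4 libraries stands at 61.7%.

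Of the 480 regions at gene ends, 317 were at the first end of a gene alone, 61 at the last end alone and 12 at both kinds, and 90 belonged to genes whose strand was not in the table used. On the chromosomes with promoter windows, 376 of 2932 mTEChi-only regions (12.8%) had their midpoint within 1 kb of a start, 214 before it and 162 at or after it, with a median position of -41 bp. A promoter window was overlapped by 250 of the 2932 (8.53%), against 11.5% of mTEClo-only regions and 54.7% of regions in all 4 libraries. Counted by window, 298 of 20084 (1.48%) overlapped an mTEChi-only region, 559 (2.78%) an mTEClo-only region and 2831 (14.1%) a region of all 4 libraries.

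The authors' score of a peak, which is a −log10 p or q and comparable only within a list, was modest in most of these regions. It had a median of 4.49 (2.02 to 30.2) in mTEChi replicate 1 and 3.83 (2.00 to 21.5) in mTEChi replicate 2. The medians of all peaks in those lists were 3.62 and 3.34, and those of regions in all 4 libraries were 9.65 and 6.12. Among the mTEChi-only regions 1207 (40.0%) stood above the median rank of both lists, 174 (5.77%) in the top 10% of both and 4 in the top 1% of both. The mTEChi-only regions were 301 to 862 bp wide with a median of 391 bp. Their mTEChi summits were a median of 89 bp apart, against 54 bp in regions of all 4 libraries, and 31.4% had them within 50 bp, against 47.5%.

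An mTEClo peak was often close by. The gap to the nearest mTEClo peak had a median of 3279 bp (quartiles 1081 and 7112), 719 regions (23.8%) had one within 1 kb, and 1916 (63.5%) within 5 kb. Among the named regions the smallest gaps were at Nfkbia, 1 bp from a peak of mTEClo replicate 1 and 29 bp from one of replicate 2, and at a region of Hivep3, 8 bp from a replicate 1 peak with a score of 9.28. At the limits of the rule, the most distant region kept was 4989 bp from a gene and the nearest left out 5049 bp. A further 2588 regions in or near genes had both mTEChi peaks and a peak in 1 mTEClo list, with a lowest mTEClo score of 2.03 and a median of 5.12. The count depends on the number of lists: without mTEChi replicate 1 it was 38195, without mTEChi replicate 2 it was 30094, and without mTEClo replicate 1 it was 4939, since a single list of that state then decides.

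**Figure D2:**
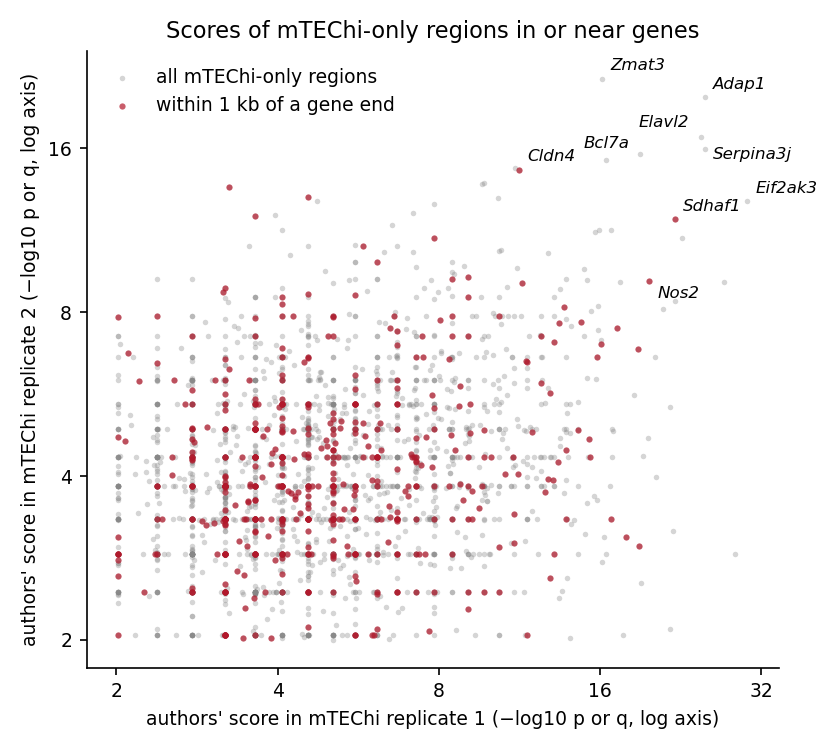
Authors' score of each mTEChi-only region in mTEChi replicate 1 (x axis) and replicate 2 (y axis), both −log10 p or q on log axes; red points lie within 1 kb of a gene end. Scores take few distinct values, so points fall on lines. The strongest regions by both scores include Adap1, Serpina3j, Elavl2, Eif2ak3 and Zmat3, away from gene ends, and Cldn4, Sdhaf1 and Nos2 are the labelled points at gene ends.

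The strongest regions lay in genes of varied function. Eif2ak3, which encodes PERK, a sensor kinase of the unfolded protein response, had a region at chr6:70872173-70872517 with scores of 30.2 and 12.8 in mTEChi replicates 1 and 2. The nearest mTEClo peaks were 1800 and 10973 bp away. The region of Serpina3j, a serine protease inhibitor gene, at chr12:104305951-104306293 scored 25.1 and 16.0, and both mTEClo lists had their nearest peak over 6 kb away, at 6199 and 6202 bp. Adap1, which encodes an ArfGAP, had a region scoring 25.1 and 19.9 with gaps of 4211 and 17144 bp. The region shown above for Elavl2 scored 24.7 and 16.8 and its midpoint lay 92 bp before an internal start of the gene. Each of these regions stood in the top 1% of both mTEChi lists, the worst rank being 0.941%.

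Further strong regions were at Sdhaf1 (22.1 and 11.8, 794 bp before the start of this succinate dehydrogenase assembly factor), Atf7ip (22.7 and 10.96), Bcl7a (18.99 and 15.6, 3671 bp outside this BAF subunit gene), Npl (16.8 and 11.3), Rassf3 (16.4 and 15.3), Nupr1 (16.0 and 11.3, with an mTEClo replicate 1 peak 133 bp away) and Nos2 (19.8 and 9.12, 105 bp outside the gene of inducible nitric oxide synthase). Among the mTEChi-only regions, that of Zmat3, a p53-induced RNA-binding protein, had the highest score in mTEChi replicate 2, 21.5, with 16.1 in replicate 1. Its gaps to the nearest mTEClo peaks were 30338 and 29761 bp. Nos2 and Sdhaf1 were the strongest at gene ends, followed among reported regions by BC051142 (14.7 and 7.69), Cdk5rap3 (13.4 and 7.63), Top3a, a topoisomerase (17.2 and 7.47), H3c6 (12.4 and 7.23) and 3110009E18Rik (11.5 and 9.06). In 4 equal groups from the strongest to the weakest regions, 17.4%, 18.4%, 16.2% and 11.7% lay within 1 kb of a gene end.

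By gene, 2450 of 20661 protein-coding genes (11.9%) held an mTEChi-only region and 3316 (16%) an mTEClo-only region. Both kinds were present in 853 genes, which is 34.8% of the mTEChi-only hosts and 25.7% of the mTEClo-only hosts. Host genes were long, with a median of 57348 bp for mTEChi-only hosts and 53714.5 bp for mTEClo-only hosts, against 17491 bp for all genes. In 4 equal groups from the shortest to the longest genes, mTEChi-only regions were held by 2.73%, 6.47%, 11.2% and 27.1%, and mTEClo-only regions by 4.47%, 9.99%, 14.9% and 34.9%. Gene length thus moved with both kinds of host, and its part in any gene list was not tested.

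**Figure D3:**
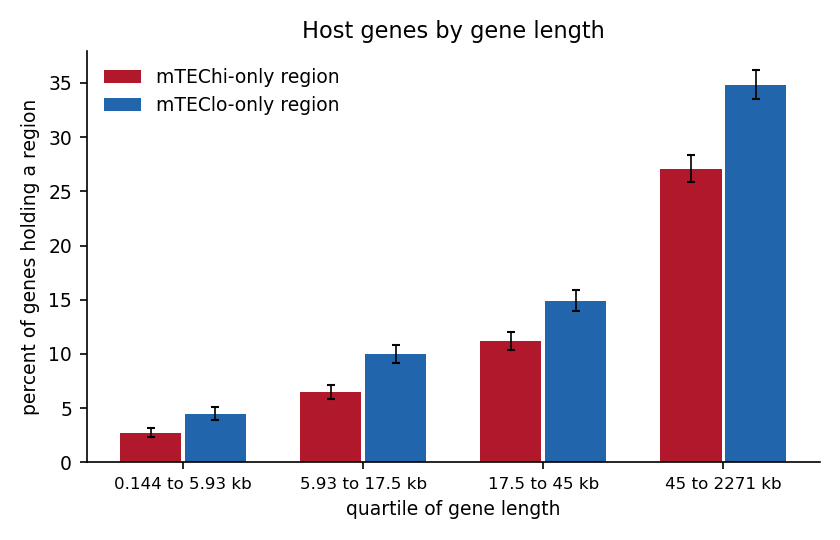
Percent of protein-coding genes holding an mTEChi-only or mTEClo-only region (y axis) in 4 quartile groups of gene length (x axis); error bars are 95% Wilson intervals. Both rise with length, to 27.1% for mTEChi-only and 34.9% for mTEClo-only regions in the longest group.

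Several regions in a gene were held by 436 genes (2.11%) with at least 2 and 113 with at least 3. Hivep3, which encodes a large zinc finger protein, had 7, Atf7ip, a cofactor of the histone methyltransferase SETDB1, had 6, as did Dlg2, a synaptic scaffold, and Kazn, which encodes kazrin. Snx29, Pip5k1b, Arid5b and Foxn3 had 5 each. Atf7ip was short for this group at 92062 bp and had 13 and 12 peaks in mTEChi replicates 1 and 2, against 4 and 7 in mTEClo replicates 1 and 2. The Atf7ip mTEChi counts include the peaks of its 6 mTEChi-only regions, which the rule chose for lacking an mTEClo peak. The contrast is thus partly set by the rule and says nothing of the gene as a whole. The larger Hivep3 had 26 and 30 mTEChi peaks, those of its 7 regions included, against 40 and 22 mTEClo peaks, so its libraries overlapped. Of the 6 Atf7ip regions the strongest scored 22.7 and 10.96 and the weakest by rank of either list 5.59 and 2.88.

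**Figure D4:**
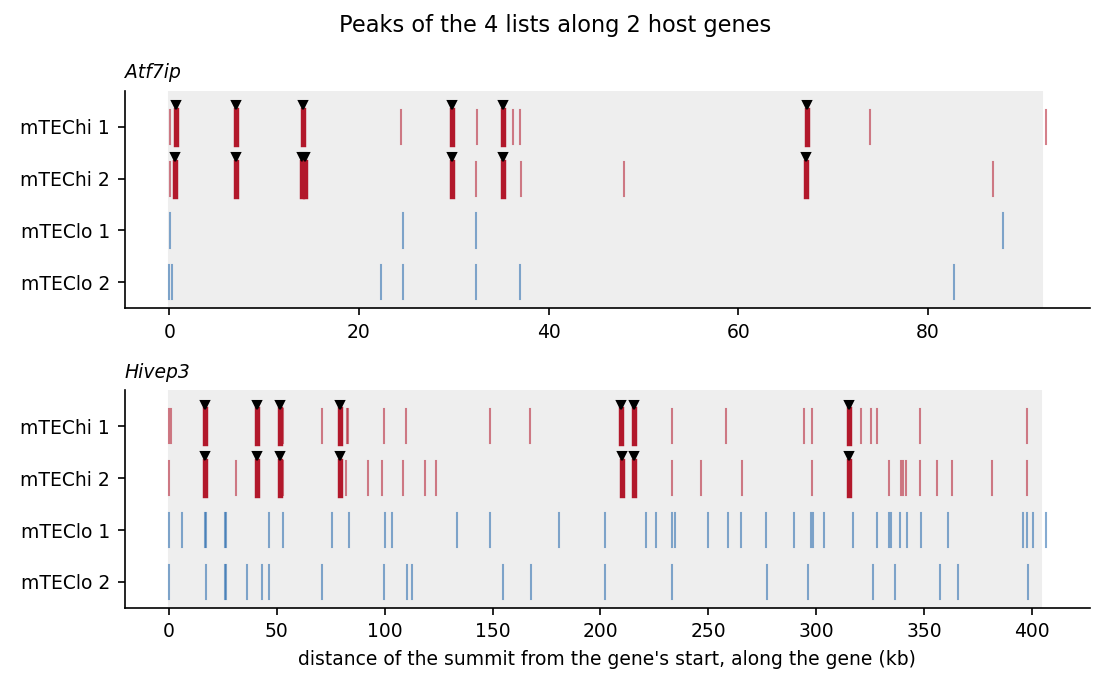
Summits in each of the 4 peak lists (rows) along Atf7ip and Hivep3, by distance from the gene's start (x axis, kb); thick ticks with triangles are peaks of mTEChi-only regions, thin ticks other peaks, and grey shading is the gene. Atf7ip has 13 and 12 mTEChi ticks against 4 and 7 mTEClo ticks, while in Hivep3 the lists are similarly dense. In both genes the mTEChi ticks include those with triangles, which the rule chose for lacking an mTEClo peak.

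No mTEClo peak was found anywhere in the gene or its 5 kb flanks for 72 host genes (0.348% of all genes), and the reverse held for 124 (0.6%). These 72 were short, with a median of 13240.5 bp. The strongest were H3c6, Sdr39u1 (16.0 and 6.98 at chr14:55900074-55900427), Gm5165, Ndufc2 (15.8 and 6.61; a subunit of respiratory complex I), H2-M3 (11.7 and 6.47; a non-classical MHC class I gene that presents formylated peptides), Zmym6 with 2 regions, Zp2, a zona pellucida glycoprotein, and Olfr155, an olfactory receptor. The Gm5165 region was the most isolated of these, with gaps of 59457 and 139131 bp to the nearest mTEClo peaks. Pbrm1, first among the genes added to the sequences above, also had 0 peaks in both mTEClo lists, against 4 and 3 in mTEChi replicates 1 and 2.

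Of 48 p53 activated targets 10 held an mTEChi-only region (20.8%, interval 11.7 to 34.3), against 10.3% of all genes in the same quartile groups of length. An mTEClo-only region was held by 14 (29.2%), against 16% of all genes, a figure not matched on length. At the Mdm2 promoter, chr10:117710670-117711024, the scores were 5.18 and 4.34 with summits 62 and 116 bp before the start, and the mTEClo lists had no peak in the gene or its flanks. The Cdkn1a region, chr17:29090698-29091179, scored 5.83 and 4.74. Its summits lay at 50 and -131 from the start at the first end of the gene interval, and which start the cells use is not known here. Cdkn1a had 2 and 2 mTEChi peaks, against 3 and 2 mTEClo peaks of which the nearest lay 631 and 2347 bp from the region, and it also held an mTEClo-only region. Fbxw7, a ubiquitin ligase subunit, scored 11.03 and 6.33 at the stronger of 2 regions. It had 14 and 14 mTEChi peaks, those of the 2 regions included, against 5 and 7 mTEClo peaks. The remaining hosts were Sesn2, Trp73, Ccnd1, Tigar, Pmaip1 and Fas, besides Zmat3. Scores at Tigar, a metabolic target, were 2.77 and 3.34. The count was 6 with all lists cut at their median score, 5 with the 10000 highest scores of each list, 5 with the mTEChi lists alone cut at the median and 5 for midpoints inside genes. In that order 1858, 758, 1393 and 2004 of all 20661 genes were hosts. The p53 target count was 33 without mTEChi replicate 1 and 37 without mTEChi replicate 2, settings under which 12116 and 10515 of all genes were hosts.

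Of 28 genes of mature mTECs and the Aire axis 9 held an mTEChi-only region (32.1%, 17.9 to 50.7), against 13.2% of genes of like length. Aire itself, Cd86, H2-Aa, H2-Ab1, Cd74 and Relb were among the list genes that held none. An mTEClo-only region was held by 2 (7.14%), against 16% of all genes. Tnfrsf11a, the receptor RANK, had 2 regions, 4260 and 3716 bp from the first end of its gene interval. They were chr1:105784766-105785100 with 7.76 and 6.41 and chr1:105784235-105784543 with 11.6 and 3.04. Cd80, a co-stimulatory ligand, had a region 111 bp outside the first end of its gene interval, with 4.93 and 4.67. The Cd80 region lay farther from the nearest transcription start and overlapped no promoter window. Fezf2, a transcription factor for tissue-restricted antigens, had 3.33 and 3.53 over its promoter window. The others were Map3k14, the NF-kB inducing kinase (4.43 and 7.42), Cd274, the ligand PD-L1 (6.09 and 3.32), Ciita, the MHC class II transactivator (3.74 and 3.25), H2-Eb1 (8.38 and 2.71), Hipk2 (3.81 and 2.88) and Cd40 (2.77 and 2.63). None of the 9 genes was free of mTEClo peaks. Tnfrsf11a also held an mTEClo-only region. The count fell to 1 with the 10000 highest scores of each list and to 3 with the mTEChi lists alone cut at their median score, settings under which 758 and 1393 of all genes were hosts. It was 14 without mTEClo replicate 1, 19 without mTEChi replicate 1 and 21 without mTEChi replicate 2. In that order 3812, 12116 and 10515 of all 20661 genes were hosts.

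In NF-kB and TNF receptor signalling 12 of 34 genes (35.3%) held an mTEChi-only region, against 14.4% of genes of like length. An mTEClo-only region was held by 7 (20.6%), against 16% of all genes. The strongest mTEChi-only host was Otulin, which removes linear ubiquitin chains, with 3 regions at 12.8 and 10.3, 6.68 and 6.59, and 4.53 and 5.01. Nfkbiz scored 11.01 and 4.34, Tnfrsf11b, the decoy receptor for RANK ligand, 5.07 and 4.26, and Traf3, a brake on the alternative pathway, 5.59 and 4.88 at the stronger of 2. This list shares Tnfrsf11a, Map3k14 and Cd40 with the mature list, so their counts are not separate, and Tnfrsf11a and Traf3 also held an mTEClo-only region. The NF-kB count was 3 with the 10000 highest scores of each list, 29 without mTEChi replicate 1 and 27 without mTEChi replicate 2. In that order 758, 12116 and 10515 of all 20661 genes were hosts. Of 37 chromatin remodellers and BAF genes 11 (29.7%) were mTEChi-only hosts, against 18.6% of genes of like length. An mTEClo-only region was held by 9 (24.3%), against 16% of all genes. The 11 hosts included the ATPase genes Smarca2 and Smarca4 and the subunit genes Arid1a and Arid1b, the last with 3 regions. Of the 11 hosts, 5 held an mTEClo-only region too, among them Smarca2, Arid1a and Arid1b. The count was 5 with the 10000 highest scores, 6 with the mTEChi lists alone cut at the median, 28 without mTEChi replicate 1 and 24 without mTEChi replicate 2. Over all genes these settings gave 758, 1393, 12116 and 10515 hosts.

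For the other epithelial lists, the mTEChi-only count is read against the percent for genes of like length, and over all genes mTEChi-only hosts were already fewer than mTEClo-only hosts (11.9% against 16%). Among immature mTEC genes 5 of 22 (22.7%, against 13.6% of genes of like length) were mTEChi-only hosts, among them Krt14 (4.79 and 6.20), and 11 (50%) were mTEClo-only hosts. Of the 5 mTEChi-only hosts, Krt14, Cd44, Trp63 and Igfbp5 were hosts of both kinds. The remaining host, the integrin gene Itga6 (7.87 and 3.66), held no mTEClo-only region. The Krt14 region lay 349 and 508 bp from peaks of mTEClo replicates 1 and 2. With no mTEClo peak allowed within 1 kb the immature count was 2. Of 32 junction and adhesion genes 8 (25.0%, against 18.7%) were mTEChi-only hosts, led by Cldn4 with 11.3 and 14.6, 15 (46.9%) were mTEClo-only hosts, and 5 were both. Thymic epithelial identity genes gave 6 of 30 (20.0%, against 11.1%), with Epcam at 4.27 and 4.83 over its promoter, and 7 mTEClo-only hosts (23.3%). The Epcam region lay 907 bp from a peak of mTEClo replicate 1. Mimetic cell lineage factors gave 6 of 30 (20.0%, against 9.63%), among them Hnf4a, a hepatic and intestinal factor (3.62 and 2.45), and 4 mTEClo-only hosts (13.3%). In Aire-dependent antigens 1 of 32 (3.13%, against 7.50%) was an mTEChi-only host, the growth hormone gene Gh, and 4 (12.5%) were mTEClo-only hosts. With the 10000 highest scores of each list, where 758 of all genes were hosts, the mTEChi-only counts fell. They were 0 for immature, 3 for junction, 0 for identity, 1 for mimetic and 0 for Aire-dependent genes.

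Axon guidance and synaptic adhesion genes gave 22 mTEChi-only hosts of 53 (41.5%, against 25.8% of genes in the same quartile groups of length). They gave 32 mTEClo-only hosts (60.4%), with 18 genes in both groups. The median length of these genes was 451529 bp, while the longest quartile group began at 45021 bp, so their length was matched only loosely. Transcriptional cofactors gave 8 of 39 (20.5%, against 17.6%) and 6 mTEClo-only hosts (15.4%). Unfolded protein response genes gave 4 of 32 (12.5%, against 9.84%) and 3 mTEClo-only hosts (9.38%). With all lists cut at their median score, where 1858 of all genes were hosts, the mTEChi-only counts were 2 and 2. With the 10000 highest scores of each list, where 758 of all genes were hosts, they were 5 and 2. Markers of other cells that a sort could carry were also among the hosts. Of 26 thymocyte genes 5 (19.2%, against 12.3% of genes of like length), among them Cd3e and Tcf7, were mTEChi-only hosts and 6 (23.1%) mTEClo-only hosts. The thymocyte mTEChi-only count was 1 with all lists cut at their median score. B cell and myeloid genes gave 3 of 24 (12.5%, against 13.5%) and 6 mTEClo-only hosts (25%). Endothelial and mesenchymal genes gave 1 of 24, Erg (4.17%, against 17.3%), and 7 mTEClo-only hosts (29.2%). The mTEChi-only percent of both of these last lists was below that for genes of like length. Of all genes 16% were mTEClo-only hosts. The part of such cells in any region was not tested.

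**Figure D5:**
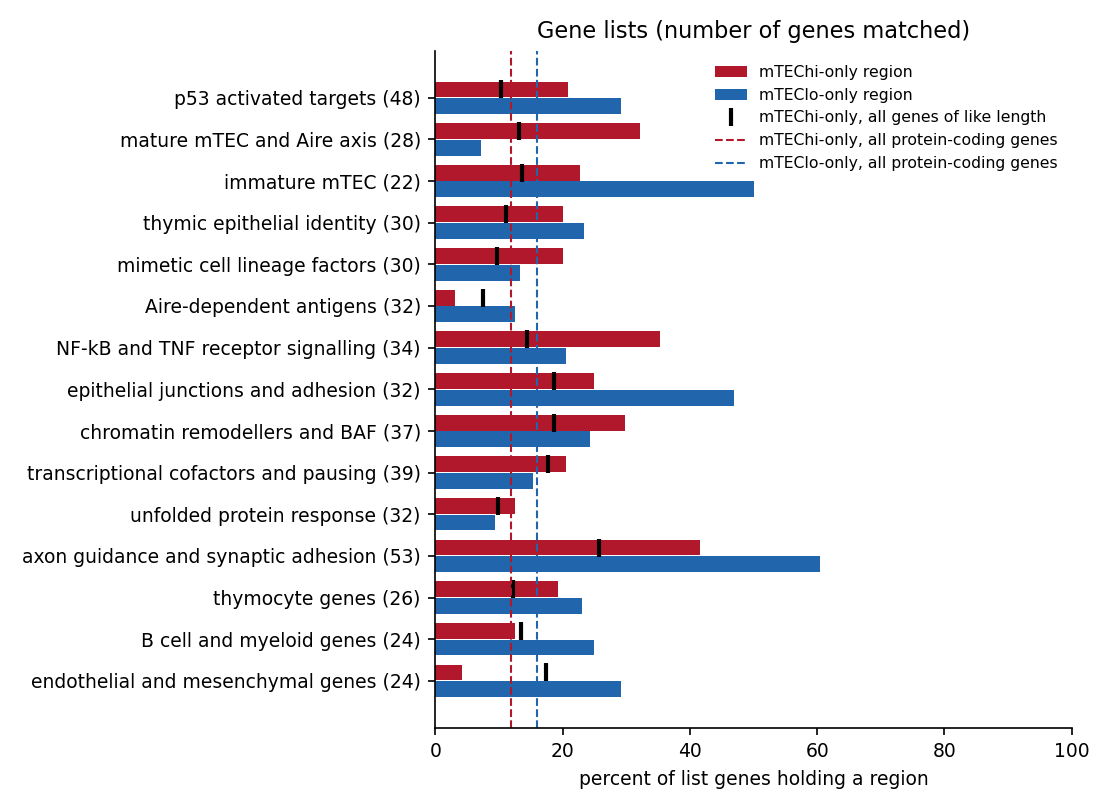
Percent of the genes of each list (rows, with the number matched) that held an mTEChi-only region or an mTEClo-only region (x axis); black marks give the mTEChi-only percent of all genes in the same quartile groups of length, dashed lines that of all protein-coding genes. The mature mTEC list shows 32.1% mTEChi-only against 7.14% mTEClo-only, and the immature list 5 genes of 22 against 11.

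Motif letters were counted in the promoter windows, with NF-kB and NRF1 searched as 10-letter motifs and all shares given without a test. The p53 half-site was in 9.06% of windows over mTEChi-only regions, 10.6% of those over mTEClo-only regions, 6.005% of those over regions of all 4 libraries and 7.32% of all windows. The E-box CACGTG was in 13.8% (10.3 to 18.1) of mTEChi-only windows, 5.90% (4.23 to 8.17) of mTEClo-only windows, 10.7% (9.58 to 11.9) of windows of all 4 libraries and 7.89% of all windows, so the mTEChi-only interval overlapped that of the windows of all 4 libraries. In the same order the shares were 7.38%, 6.08%, 4.03% and 7.06% for AP-1 (TGANTCA), 7.72%, 6.26%, 5.65% and 5.13% for NF-kB, and 61.1%, 61.2%, 71.8% and 47.0% for the Sp/KLF motif (GGGCGG). They were 38.6%, 35.4%, 54.2% and 38.1% for NFY (CCAAT), 2.35%, 1.07%, 2.51% and 1.34% for NRF1, and 2.35%, 3.04%, 4.80% and 2.30% for CRE (TGACGTCA). For Ets (CCGGAAGT) they were 7.38%, 6.798%, 11.3% and 5.28%. Shortening Ets to CCGGAA, a choice made after the shares were seen, gave 30.9%, 22.5%, 34.9% and 19.1%, so the gap between the kinds of window depends on the letters searched. The median GC content was 59.3% for mTEChi-only windows, 61.7% for mTEClo-only windows, 61.7% for windows of all 4 libraries and 57.0% for all, and its part in these shares was not tested.

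As a measure the rule did not use, the share of each library's peaks in or near genes was compared between states. It was 59.4% and 59.5% in mTEChi replicates 1 and 2, against 60.8% and 60.1% in mTEClo replicates 1 and 2. Both mTEChi libraries were below both mTEClo libraries, with means of 59.5% ± 0.101 and 60.4% ± 0.531 (SD, n = 2 each). The difference of -0.965 percentage points had p = 0.333 in a two-sided exact permutation test, the smallest p that 4 libraries allow. Among the 10000 highest scores of each list the direction turned: the shares were 72.9% and 69.2% in mTEChi replicates 1 and 2, against 71.4% and 64.4% in mTEClo replicates 1 and 2, a difference of 3.11 percentage points (exact permutation p = 0.667).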

How the data were processed

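CUT&RUN peaks of 2 mTEChi and 2 mTEClo libraries were used, grouped by the sample titles. The submitters' processing notes name MACS2 2.2.7.1, SAMtools 1.9, Bowtie2 2.2.9 and Picard, with the build mm10; their settings and any peak calling control are not given here. The deposited lists hold summits with 150 bp on each side, called per library, and the authors' score, taken to be −log10 p or −log10 q (which one is not stated), was used only to rank or filter within a list. Depth is unknown, so a peak absent from a list is not evidence that signal is absent, and intervals cover counting error only.

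Intervals were merged, classified by the lists present and placed on RefSeq GRCm38.p6 protein-coding gene intervals, without exons, so exons and introns were not told apart. Promoter windows covered 20084 starts and none on chromosome 18. Shares have 95% Wilson intervals; for shares of each library's peaks an exact permutation test (two-sided) was used, where p-values measure only the spread between libraries, which may be technical. Merging, classing and placing were tested on simulated lists whose unrelated intervals lay too far apart to merge. Merging of unrelated neighbours in crowded lists was thus not tested. The members, the 15 gene lists and the rules were chosen with earlier results of these data known. The 9 motifs were likewise chosen with the files at hand and were in no written plan. The percent for genes of like length weights 4 quartile groups of gene length as in each list.

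Regions were ranked in each mTEChi list by score, and the larger rank percent was a region's worst rank. Named were the 12 regions of lowest worst rank, the 8 at gene ends, the 8 genes with most regions, the 8 strongest genes without mTEClo peaks, and up to 5 host genes per list; further listed hosts and the Pbrm1, Cdkn1a, Mdm2 and Epcam sequences were added after their values were seen. Some regions that the rule names are not reported here. Alternatives were a 150 bp overlap, score limits, other gene windows, an mTEClo-free 1 kb, each library left out and the replicate number as a block. Computation used scipy 1.17.1, matplotlib 3.10.9, pandas 2.3.3 and numpy 2.4.6 under Python 3.11.15.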

Additional observations from a re-analysis of the deposited data

Results flagged for a closer look

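Chromosome X lies outside the rule. It held 21 regions in or near genes with a peak in both mTEChi lists and neither mTEClo list and 8 of the reverse kind, a signal in data that no comparison of the report used. The 21 are 2.49% of the 844 merged X regions in or near genes, beside 2.04% on chromosomes 1 to 19, a difference that was not tested. The strongest was at Ddx3x, an RNA helicase gene, with scores of 14.6 and 17.6 in mTEChi replicates 1 and 2, and Eda2r, a p53 target, had 5.59 and 4.34.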

How the results depend on the processing

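Against 3017 regions and 2450 host genes, the 10000 highest scores of each list gave 790 and 758, and mTEChi lists cut at their median with whole mTEClo lists gave 1577 and 1393. Leaving out 1 library gave 3676 to 38195 regions and 2947 to 12116 genes. The percent inside a gene, 82.5, was 80.5 with a 150 bp overlap, 78.0 for peaks at or above the median, 67.3 for the 10000 highest, 80.5 with mTEChi lists alone cut, 84.1 with no mTEClo peak within 1 kb, 91.7 with a 1 kb gene window, 67.9 with a 25 kb window, and 77.7 to 87.5 without 1 library. The percent within 1 kb of a gene end, 15.9, was 19.8, 24.6, 39.5, 17.9, 11.8, 17.7 and 13.1 under the same settings in that order, 10.3 for midpoints inside genes only, and 8.79 to 27.2 without 1 library. The library difference reversed to 3.11 among the 10000 highest scores (exact permutation p = 0.667) and was -1.34 to -0.590 without 1 library; the cause was not tested. Peak lists hold no read depth, which limits every count of absent peaks.

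With the replicate number as a block the library difference was -0.965 with an exact p of 0.5, the smallest that 2 pairs allow; nothing in the labels says that equal numbers share a source.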
